A study of Rattus norvegicus with 174 samples.

Results

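The enzymes described here remove superoxide and peroxides from rat tissues: catalase (Cat), the superoxide dismutases Sod1, Sod2 and Sod3, the glutathione peroxidases Gpx1, Gpx3 and Gpx4, the peroxiredoxins Prdx1 and Prdx6, and glutathione reductase (Gsr). The 10 genes were listed by name, and each was read from the probe set that the array annotation assigns to that gene alone, taking the brightest one on average where there were several. Of the 10, 9 could be measured among the 13438 genes of the array. The probe set of Prdx1 is also annotated to a second gene, Prdx1l1, so no value is given for Prdx1.

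Superoxide dismutases turn superoxide, a by-product of electron leakage from the respiratory chain, into hydrogen peroxide. Catalase in peroxisomes, glutathione peroxidases and peroxiredoxins then reduce hydrogen peroxide or lipid peroxides, and glutathione reductase uses NADPH to restore the glutathione that the peroxidases spend. Phosphine, a fumigant gas, is known to disturb mitochondrial respiration and to cause oxidative damage.

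Total RNA of 33 male Sprague-Dawley rats of 300 to 400 g, an outbred stock, was hybridized to 174 single-colour Affymetrix arrays. Exposed rats breathed phosphine at 660 ppm for 32.2 min in a whole-body chamber, a product of 21252 ppm × min and 0.91 times the median lethal product, and control rats breathed air. Lung, liver, kidney, heart and brain were collected 1, 3, 6 or 24 h after exposure from 4 rats per group, or from 2 air rats at 6 h, and blood by heart puncture gave 4 exposed and 4 air samples at 1 and 3 h, 5 and 1 at 6 h, and at 24 h 2 from exposed and none from air rats. All rats, air controls included, were killed under ketamine and xylazine by exsanguination, and the same 30 rats gave all 5 solid tissues. Values are log2 signals. In whole tissue, fewer cells of a type and less RNA per cell cannot be told apart.

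Each solid tissue carried its own markers in the air rats: hepatocyte markers averaged 13.0 in liver, alveolar and airway epithelium 12.4 in lung, cardiomyocyte 12.4 in heart, proximal tubule 11.1 in kidney and neuron 10.7 in brain, and erythroid markers averaged 11.6 in blood. On 9 arrays, the marker mean of another organ lay at least 4 log2 units above the median of the labelled tissue. These were 3 heart, 3 lung, 2 liver and 1 kidney arrays, and 7 of the 9 were from exposed rats. Among them, Rat729 gave a heart and a lung array, and Rat741 a heart and a liver array. Exposed rats gave more solid-tissue arrays than air rats, as the 6 h groups held 4 and 2 rats. A link to exposure was not tested.

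In air rats, the 9 transcripts had distinct tissue profiles, and of 135 differences between pairs of tissues 124 passed an adjusted p of 0.05 (limma, adjusted over all genes of a pair; n = 14 per solid tissue, 9 in blood). Between 69.1% and 90.1% of all genes passed the same test in a pair of tissues. Against brain the share of all genes was 79.6% for heart, 77.5% for kidney, 84.3% for liver, 76.5% for lung and 90.1% for blood. Against heart it was 69.8% for kidney, 71.4% for liver, 77.4% for lung and 88.1% for blood, and against kidney 69.1% for liver, 71.3% for lung and 89.4% for blood. It was 80% between liver and lung, 88.1% between liver and blood and 89.5% between lung and blood, so most genes differed between any pair of tissues. The order of the tissues differed from gene to gene and is described next by the enzymes' roles. Levels are compared only between tissues for the same probe set. The difference between neighbours comes from a fit that adjusts for time. The average array median ran from 4.19 in liver to 4.58 in brain, and orders that change when each array is centred on its median are named.

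**Figure D1:**
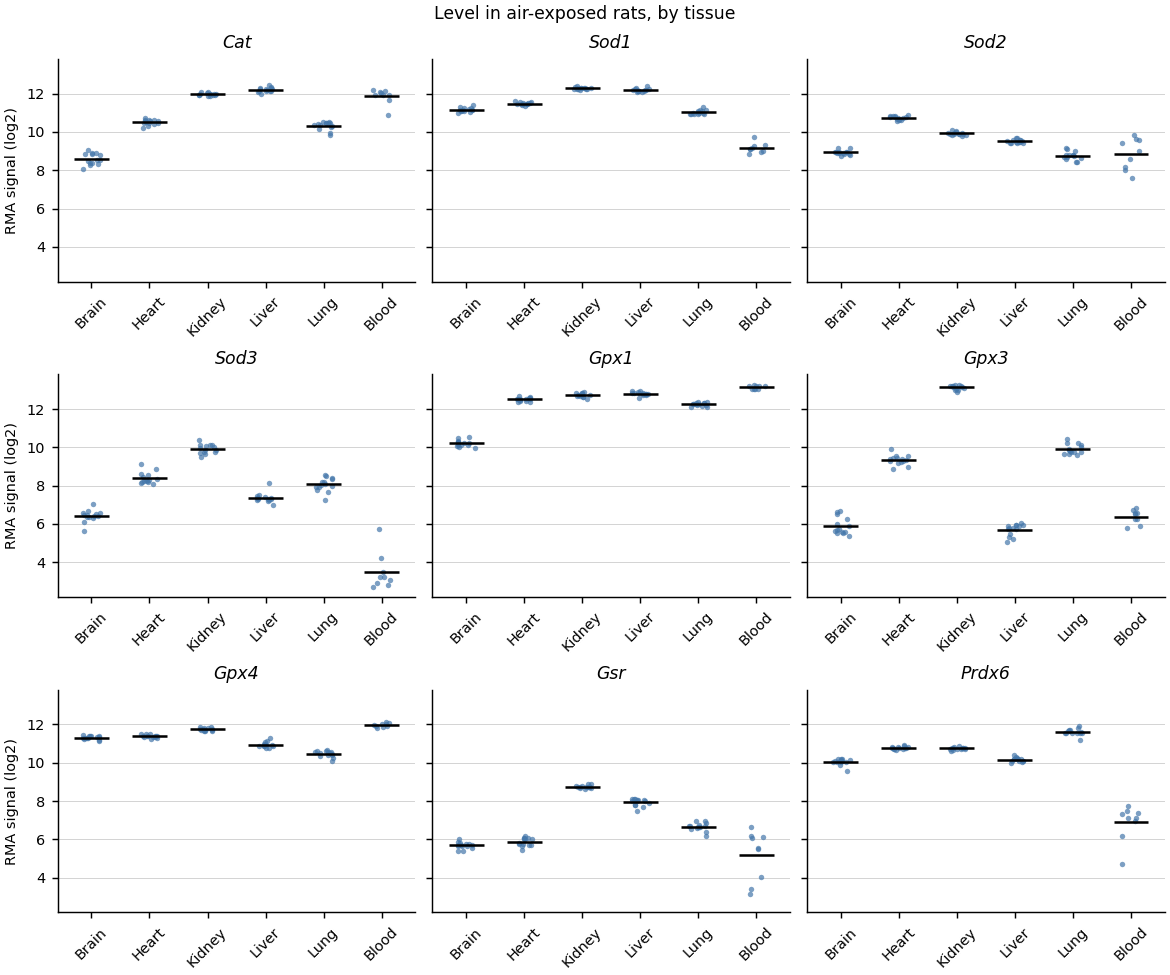
Signal of each of the 9 measured genes (log2, y axis) in air rats by tissue (x axis): each point is 1 array and each bar the mean (n = 14 per solid tissue, 9 in blood). Gpx3 in kidney, mean 13.13, and Prdx6 in blood, mean 6.88, stand farthest from the nearest other tissue of their gene.

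Among the superoxide dismutases, Sod1, the copper and zinc enzyme of the cytosol, averaged 12.28 ± 0.04 (SD) in kidney, 12.19 ± 0.08 in liver, 11.48 ± 0.06 in heart, 11.17 ± 0.11 in brain, 11.04 ± 0.11 in lung and 9.17 ± 0.27 in blood. Kidney and liver, the first neighbours in that order, differed by 0.09 ± 0.05 (SE; limma, adjusted p = 0.0904), and with each array centred on its median liver was the higher by 0.13 (adjusted p = 0.0182). The step from lung down to blood was 3.68-fold. Sod2, the manganese enzyme of mitochondria, was highest in heart at 10.74 ± 0.09, then 9.92 ± 0.08 in kidney, 9.52 ± 0.09 in liver, 8.93 ± 0.12 in brain, 8.87 ± 0.81 in blood and 8.76 ± 0.22 in lung. Heart exceeded kidney 1.77-fold (limma, adjusted p = 2.66e-10), while brain and blood, and blood and lung, did not differ past the threshold (adjusted p = 0.816 and 0.274). With array medians centred, kidney no longer exceeded liver past the threshold (adjusted p = 0.152) and lung lay below blood by 0.29 (0.0328), and brain no longer exceeded lung for Sod1 (0.0602). The second Sod2 probe set was also highest in heart, at 9.85 ± 0.16, but placed brain at 8.35 ± 0.21 above liver at 7.67 ± 0.27. With the mean of both probe sets, brain and liver no longer differed past the threshold (limma, adjusted p = 0.681), and brain exceeded blood by 0.52 (9.40e-05) and lung by 0.41 (4.62e-04).

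Sod3, the dismutase secreted to the extracellular matrix, ranged over 11.3-fold in the solid tissues. It averaged 9.92 ± 0.24 in kidney, 8.41 ± 0.30 in heart, 8.07 ± 0.35 in lung, 7.37 ± 0.26 in liver, 6.42 ± 0.31 in brain and 3.50 ± 0.96 in blood, and each step in this order passed the test (largest adjusted p = 0.0370, heart against lung). The blood mean of Sod3 lies below the average array median of blood, 4.41, near the low end of the scale, which starts at 1.74, so no fold is given for blood.

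Catalase was high in liver (12.21 ± 0.12), kidney (11.98 ± 0.07) and blood (11.87 ± 0.41), intermediate in heart (10.51 ± 0.14) and lung (10.33 ± 0.21), and lowest in brain (8.59 ± 0.30). Liver exceeded kidney by 0.23 ± 0.08 (limma, adjusted p = 0.0113), kidney and blood did not differ past the threshold (adjusted p = 0.351), and lung exceeded brain 3.32-fold. From liver to brain the range was 12.2-fold, wider than in 80.3% of all genes over the solid tissues.

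Gpx1, the selenium-dependent peroxidase of the cytosol, was highest in blood at 13.13 ± 0.10 and lay between 12.25 and 12.81 in liver, kidney, heart and lung, but averaged 10.22 ± 0.16 in brain. Lung exceeded brain 4.09-fold (limma, adjusted p = 1.86e-54), and liver and kidney did not differ past the threshold (adjusted p = 0.136). With array medians centred, liver exceeded kidney by 0.30. Gpx4, which reduces peroxidized phospholipids within membranes, varied little: 11.97 ± 0.10 in blood, 11.75 ± 0.07 in kidney, 11.39 ± 0.08 in heart, 11.32 ± 0.09 in brain, 10.94 ± 0.13 in liver and 10.46 ± 0.15 in lung. Its 2.43-fold range over the solid tissues was smaller than the median range of all genes, 1.67 log2 units. Heart and brain did not differ past the threshold (adjusted p = 0.132). Centring on array medians placed heart above brain by 0.34, and brain then no longer exceeded liver past the threshold (adjusted p = 0.787). The second, dim Gpx4 probe set averaged 3.40 in brain to 5.45 in blood, and with the mean of both sets kidney no longer exceeded heart past the threshold (limma, adjusted p = 0.782), nor brain liver (0.368), while heart exceeded brain by 0.45 (9.80e-09).

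Gpx3, the glutathione peroxidase secreted into plasma and known to be made largely by the kidney, had the widest profile of the 9 genes. It averaged 13.13 ± 0.10 in kidney, 9.92 ± 0.26 in lung, 9.35 ± 0.26 in heart, 6.38 ± 0.36 in blood, 5.90 ± 0.44 in brain and 5.70 ± 0.30 in liver. Kidney exceeded lung 9.26-fold (limma, adjusted p = 4.08e-41) and liver 172-fold, a range wider than in 97.4% of all genes over the solid tissues. Brain and liver did not differ past the threshold (adjusted p = 0.0954).

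Gsr, the reductase that serves the peroxidases, averaged 8.75 ± 0.07 in kidney, 7.94 ± 0.19 in liver, 6.66 ± 0.20 in lung, 5.87 ± 0.21 in heart, 5.68 ± 0.17 in brain and 5.18 ± 1.31 in blood. Kidney exceeded liver 1.75-fold (limma, adjusted p = 1.86e-05), and heart and brain did not differ past the threshold (adjusted p = 0.299). With array medians centred, heart exceeded brain by 0.46 and brain no longer exceeded blood past the threshold. Prdx6, a peroxiredoxin that also has phospholipase activity and is known for its part in surfactant turnover, was highest in lung at 11.61 ± 0.17. Lung exceeded heart (10.78 ± 0.07) 1.77-fold (limma, adjusted p = 7.89e-09). Kidney (10.75 ± 0.06) did not differ from heart past the threshold (adjusted p = 0.823), nor brain (10.05 ± 0.16) from liver (10.16 ± 0.11; adjusted p = 0.395). Centring on array medians placed liver above brain by 0.50. Blood averaged 6.88 ± 0.93, and brain exceeded it by 3.17 on the log2 scale.

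The spread among air rats was smallest in kidney for 8 of the 9 genes, with SDs from 0.04 for Sod1 to 0.24 for Sod3, and was largest in blood for 6. Air rats killed at different times gave no member past the threshold in any tissue (limma moderated F, adjusted over all genes), where 0% of genes passed in brain, 0.104% in heart, 0.64% in kidney, 0.246% in liver, 1.67% in lung and 0.558% in blood. The smallest of these adjusted p-values was that of Cat in blood, 0.119. Without Rat720, Gsr passed in blood (adjusted p = 0.0278).

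Across the 79 air arrays, the genes with the profile most like each enzyme were chosen by Pearson's r among genes above the 40th percentile of mean level. Cat was most like Alad, which makes a heme precursor (r = 0.952), Sod1 like Aldh7a1 (0.990), Sod2 like Oxa1l, an insertase of the mitochondrial inner membrane (0.920), Sod3 like Fzd1 (0.945), and Gpx1 like Dap (0.966). Gpx3 was most like Alpl, alkaline phosphatase (0.968), Gpx4 like Get3 (0.925), Gsr like Galm, galactose mutarotase (0.939), and Prdx6 like Hirip3 (0.961). The next in order were Mtmr14, Gcsh, Chchd3, Dab2, Selenbp1, Ppic, Fn3k, Glmp and Rbpjl2, with r between 0.908 and 0.969. These values describe arrays that fall into 6 tissues and share rats, so differences between tissues enter every r.

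Promoter sequence was read for 7 of the 10 listed genes from RefSeq on GRCr8, as the 250 bases before the annotated start. The letters searched were TGA, any 5 bases, then GC, on both strands. This spacing differs from that of the antioxidant response element bound by NRF2, so a match does not mark that element. Of these 7 genes, 5 (Sod1, Sod2, Gpx3, Gpx4 and Prdx1) held at least 1 match to these letters in a window. Gpx4 has 3 windows, 1 of them with a match, so 5 of 9 windows held one, against 36.4% of 33469 windows in the table. A match is a description of the letters and not a site. The windows of Sod2, the mitochondrial enzyme that rose in lung, and of Gpx3, the gene with the widest tissue profile, are shown. They run 5′ to 3′ on the strand of the gene, with the matches in capitals. In Sod2 (chr1:50050169-50050418, minus strand) the matches start 190 and 50 bases before the start. In Gpx3 (chr10:39529085-39529334, plus strand) the match starts 57 bases before the start and reads on the opposite strand.
Sod2: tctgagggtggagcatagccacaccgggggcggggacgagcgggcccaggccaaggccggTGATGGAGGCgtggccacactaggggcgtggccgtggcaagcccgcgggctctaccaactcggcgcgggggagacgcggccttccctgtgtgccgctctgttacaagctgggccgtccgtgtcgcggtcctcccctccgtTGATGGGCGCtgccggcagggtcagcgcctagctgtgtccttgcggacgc
Gpx3: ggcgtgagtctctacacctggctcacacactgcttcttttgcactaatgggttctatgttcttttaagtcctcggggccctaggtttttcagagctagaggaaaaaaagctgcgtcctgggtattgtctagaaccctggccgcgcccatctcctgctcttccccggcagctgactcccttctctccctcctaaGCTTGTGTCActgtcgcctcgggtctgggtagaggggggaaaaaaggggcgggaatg

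After phosphine, 4 of 207 member comparisons (9 genes in 23 pairs of groups) passed an adjusted p of 0.05 in limma, against 1.92% of all genes by comparison. They were Gsr, Prdx6 and Sod2, each higher in lung at 3 h, and Prdx6, lower in liver at 3 h. In the 180 comparisons of solid tissue, 14 had an unadjusted p under 0.05 in limma. Of all genes, between 3.16% (lung at 24 h) and 25.3% (lung at 3 h) did so in a comparison. Of the 180 member differences, 164 lay within 0.25 log2 units of 0, and the 95% confidence interval lay within 0.5 in 136 and within 1 in 176. The widest intervals belonged to Gpx3 in liver, where the lower bounds reached -1.83 and the upper bounds 2.93, and the narrowest to Sod1, Gpx1 and Gpx4, for each of which all 20 intervals stayed within 0.5 of 0. The adjusted p of Gsr was 0.0153 and the others lay between 0.0424 and 0.0497, and none of the 4 calls remained when the 9 arrays with transcripts of another organ were left out or when only the 2 groups compared were fitted.

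**Figure D2:**
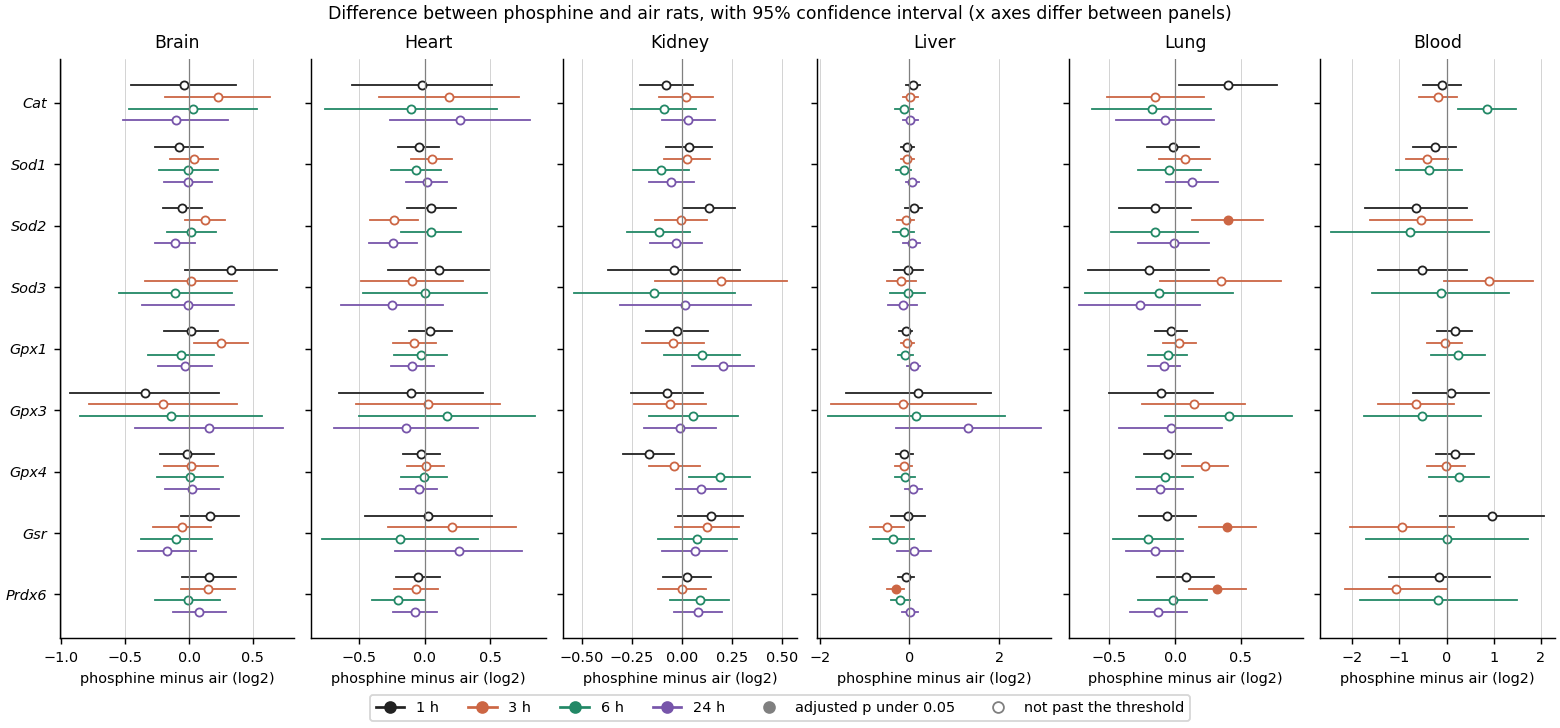
Difference between phosphine and air rats (log2, x axis, a different scale per panel) for each gene (y axis), tissue (panel) and time (colour), with 95% confidence intervals from limma. Filled points passed an adjusted p of 0.05: Gsr, Sod2 and Prdx6 in lung at 3 h and Prdx6 in liver at 3 h.

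In lung at 3 h, 3 of the 9 genes rose and none fell, where 5.84% of all genes were called higher and 5.76% lower, 11.6% in all. Gsr, which regenerates reduced glutathione, was 6.85, 6.81, 6.77 and 6.99 in the exposed rats and 6.41, 6.17, 6.63 and 6.64 in the air rats. The groups did not overlap, and all 4 exposed rats lay above the highest air rat. The rise was 1.32-fold, 0.40 ± 0.11 on the log2 scale (limma, adjusted p = 0.0153).

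Sod2 was 9.12, 9.22, 8.80 and 8.96 in the exposed lungs and 8.44, 8.73, 8.71 and 8.62 in the air lungs. Here too all exposed rats lay above all air rats, but the lowest exposed value was close to the highest air value. The rise was 1.32-fold, 0.40 ± 0.13 (limma, adjusted p = 0.0497). The second Sod2 probe set differed in the same direction, by 0.30 ± 0.13 (limma, unadjusted p = 0.0252), and with the mean of both probe sets the difference of 0.35 missed the threshold (adjusted p = 0.0542).

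Prdx6 was 11.74, 11.69, 11.72 and 11.99 in the exposed lungs and 11.55, 11.17, 11.58 and 11.56 in the air lungs. The groups did not overlap, and the air value of 11.17, from Rat733, stood apart from the other air rats. The rise was 1.25-fold, 0.32 ± 0.10 (limma, adjusted p = 0.0478).

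Of the other genes in lung at 3 h, Gpx4 was 10.50 ± 0.07 (SD, n = 4) in exposed and 10.27 ± 0.13 in air rats, without overlap, and the difference of 0.23 missed the threshold (limma, adjusted p = 0.0872; 95% interval 0.05 to 0.40), but passed it without Rat716 (adjusted p = 0.0346). Sod3 was 8.17 ± 0.16 against 7.82 ± 0.12, also without overlap, with a difference of 0.35 (adjusted p = 0.360; interval -0.11 to 0.80). In all, 5 of 9 genes had groups that did not overlap, against 18.3% of all genes. The groups overlapped for Sod1 (0.07, interval -0.12 to 0.27), Gpx1 (0.03, -0.09 to 0.16), Gpx3 (0.14, -0.25 to 0.53) and Cat (-0.15, -0.52 to 0.22).

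Markers of other cell types also differed between these lungs. Macrophage and monocyte markers were higher in the exposed lungs for 5 of 8 genes and lower for 1 (mean of the list 7.31 to 7.43 against 6.96 to 7.20), and neutrophil markers were higher for 3 of 7 and lower for none (5.92 to 6.25 against 5.13 to 5.65). Alveolar and airway epithelium had 2 of 7 markers higher (12.42 to 12.53 against 12.11 to 12.47) and lymphocytes 1 of 6 lower (5.72 to 6.58 against 6.11 to 6.66). Erythroid markers, none of 4 called, ranged from 5.61 to 6.02 in exposed and from 5.10 to 5.58 in air lungs. The part of these cells in the changes of Gsr, Sod2 and Prdx6 was not tested. The 3′ minus 5′ difference of control transcripts, a measure of RNA integrity, was 0.42 (0.39 to 0.46) in exposed and 0.38 (0.17 to 0.57) in air lungs. Skeletal muscle markers on the arrays of exposed Rat729 and air Rat733 lay 4.78 and 5.91 above the median of lung. Hepatocyte markers ranged from 4.30 to 4.81 in exposed and from 3.91 to 8.29 in air lungs. Without the arrays of Rat729 and Rat733 and that of Rat716, taken at 1 h, the differences were 0.31 for Gsr (limma, adjusted p = 0.0772), 0.37 for Sod2 (0.144) and 0.25 for Prdx6 (0.177).

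Leaving out 1 rat ended the call of Gsr for Rat731 (adjusted p = 0.0528) and Rat733 (0.0748). The call of Sod2 was lost without any 1 of Rat712, Rat720, Rat721, Rat728, Rat729, Rat731, Rat732, Rat733, Rat738, Rat739, Rat742, Rat744, Rat749, Rat750, Rat751, Rat758, Rat761 and Rat789 (limma, adjusted p from 0.0508 to 0.152). That of Prdx6 was lost without any 1 of Rat712, Rat727, Rat728, Rat729, Rat730, Rat731, Rat732, Rat733, Rat739, Rat744, Rat745, Rat748, Rat750, Rat751, Rat761, Rat762, Rat763 and Rat789 (0.0503 to 0.199). Over these fits the differences ran from 0.30 to 0.45 for Gsr, 0.33 to 0.47 for Sod2 and 0.22 to 0.36 for Prdx6. As the groups did not overlap, leaving out 1 rat could not bring a difference to 0. Rats of other groups leave the difference itself unchanged.

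The 3 enzymes did not hold these differences at the other times in lung. Gsr averaged 6.78 in exposed and 6.84 in air rats at 1 h, 6.41 and 6.61 at 6 h, and 6.53 and 6.69 at 24 h, so the exposed mean was the lower one at each of these times. The change of its effect between times passed the test (limma moderated F, adjusted p = 0.0412, where 6.38% of all genes passed). No member passed without any 1 of Rat712, Rat719, Rat720, Rat726, Rat728, Rat729, Rat730, Rat731, Rat732, Rat733, Rat742, Rat744, Rat745, Rat748, Rat749, Rat751, Rat758 and Rat762, and Gpx4 passed beside Gsr without Rat716 (adjusted p = 0.0469). Sod2 differed by -0.15, -0.16 and -0.01 at 1, 6 and 24 h, and Prdx6 by 0.08, -0.02 and -0.13. For these 2 genes the change between times missed the threshold (adjusted p = 0.162 and 0.209). In the other tissues no member passed this test, where 0.0893% of all genes passed in brain, 0.424% in heart, 1.75% in kidney, 0.476% in liver and 0.268% in blood. The air lungs at 3 h had the lowest mean of the 4 air groups for all 3 genes: 6.46 for Gsr (others 6.61 to 6.84), 11.47 for Prdx6 (11.60 to 11.77) and 8.62 for Sod2 (8.64 to 8.96). Against air lungs of all times pooled, the differences at 3 h were 0.20 for Gsr (limma, adjusted p = 0.228), 0.17 for Prdx6 (0.259) and 0.27 for Sod2 (0.149), so none of the calls remained.

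**Figure D3:**
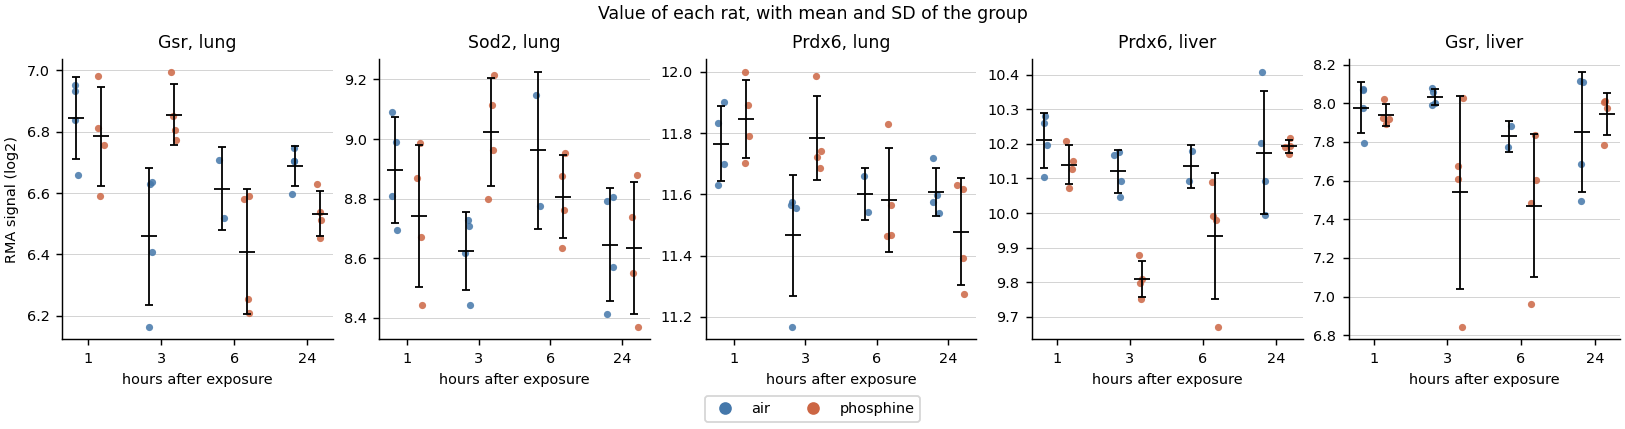
Log2 signal (y axis) of Gsr, Sod2 and Prdx6 in lung and of Prdx6 and Gsr in liver, by hours after exposure (x axis): each point is 1 rat, air in blue and phosphine in orange, with the mean and SD of the group (n = 4, or 2 air rats at 6 h). At 3 h the groups do not overlap in the first 4 panels, and in liver at 3 h the lowest exposed Gsr value, 6.85, lies well below the others.

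In liver at 3 h, 1 of the 9 genes fell and none rose, where 1.87% of all genes were called lower and 1.99% higher, 3.85% in all. Prdx6 was 9.88, 9.81, 9.75 and 9.80 in the exposed rats and 10.17, 10.05, 10.18 and 10.09 in the air rats. All exposed rats lay below all air rats, for 1 of 9 genes against 11.5% of all genes, and both groups were tight (SD 0.05 and 0.06). The exposed level was 0.806 of the air level, -0.31 ± 0.09 on the log2 scale (limma, adjusted p = 0.0424). At 6 h, exposed livers were again below both air livers, by 0.20 (adjusted p = 0.594; interval -0.42 to 0.02; 2 of 9 genes without overlap there, against 17.5% of all genes), and at 24 h the difference was 0.02.

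Gsr in liver at 3 h was 7.61, 7.67, 6.85 and 8.03 in exposed and 8.06, 8.08, 7.99 and 7.999 in air rats. The lowest of these, Rat730, lay far from the rest, and the highest exposed value, of Rat731, overlapped the air rats. The difference of -0.49 ± 0.18 missed the threshold (limma, adjusted p = 0.151; interval -0.87 to -0.12). In all, 8 of 9 differences in liver at 3 h were below 0, with a median of -0.13 against -0.01 for all genes. The same count held in liver at 6 h (median -0.12 against -0.01 for all genes) and in lung at 6 and 24 h. In liver at 24 h, 8 of 9 were above 0. The share of all genes below 0 was not counted. With air rats of all times pooled, Prdx6 at 3 h and Prdx6, Gsr, Gpx1 and Sod1 at 6 h were lower past the threshold, by 0.18 to 0.47. The 6 h air livers had the lowest mean of the air groups for Gsr (7.83), Gpx1 (12.69) and Sod1 (12.13), but not for Prdx6. Against the air livers of 6 h alone, the differences were -0.36 for Gsr, -0.09 for Gpx1 (limma, adjusted p = 0.822) and -0.13 for Sod1 (0.704). With air rats pooled, the shares of all genes were higher as well. In that pooled fit 4.29% of all genes were called lower at 3 h and 3.85% at 6 h, 7.25% and 7.21% in both directions.

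Leaving out any 1 of Rat710, Rat712, Rat716, Rat726, Rat727, Rat729, Rat730, Rat731, Rat732, Rat733, Rat738, Rat739 and Rat749 ended the call of Prdx6 in liver (limma, adjusted p from 0.05003 to 0.119), with the difference between -0.34 and -0.29. Without the livers of Rat719 and Rat741, which carried transcripts of another organ at other times, the difference was -0.31 (adjusted p = 0.0558). None of 8 hepatocyte markers was called, with list means of 12.97 to 13.08 in exposed and 13.01 to 13.08 in air rats, while skeletal muscle markers ranged from 2.77 to 6.88 and from 2.92 to 3.71. The integrity measure was 0.65 (0.39 to 0.94) in exposed and 0.48 (0.28 to 0.59) in air livers, and its part in the decrease was not tested.

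The effect at 3 h differed between the 5 solid tissues for Prdx6 (limma moderated F, adjusted p = 4.01e-04), Sod2 (0.00104) and Gsr (0.0183), 3 of 9 genes, where 14.4% of all genes passed. Prdx6 differed by 0.32 in lung, 0.15 in brain, -0.003 in kidney, -0.07 in heart and -0.31 in liver. Sod2 differed by 0.40 in lung, 0.13 in brain, -0.005 in kidney, -0.09 in liver and -0.24 in heart. Gsr differed by 0.40 in lung, 0.21 in heart, 0.12 in kidney, -0.06 in brain and -0.49 in liver. In heart, Gsr was 5.83, 7.07, 5.62 and 5.55 in exposed and 5.70, 5.44, 6.06 and 6.03 in air rats. The value of 7.07 was from Rat729, on whose heart array the hepatocyte markers lay 7.99 above the median of heart. Without Rat720 or Rat789, Gpx1 passed as well (adjusted p = 0.0486 and 0.0451), as it did with a trended and robust prior (0.0448) and with dim genes left out (0.0466). Lung stood at the top of the order for all 3 genes, and liver at the bottom for Prdx6 and Gsr. The test between tissues was not repeated without the arrays of other organs or with pooled air rats. Under each of these settings the lung calls of all 3 genes were lost. At 1, 6 and 24 h none of the 9 genes passed this test, where 3.27%, 1.35% and 0.625% of all genes did.

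Outside these 2 comparisons no member passed the threshold. In heart, 1.33%, 3.33%, 0.35% and 0.0819% of all genes were called at 1, 3, 6 and 24 h. Sod2 at 3 h was 10.56 ± 0.20 in exposed and 10.79 ± 0.08 in air hearts (SD, n = 4; difference -0.24, limma, adjusted p = 0.156). At 24 h it was 10.56 ± 0.17 against 10.80 ± 0.03, a difference of -0.24 without overlap (adjusted p = 0.461; 1 of 9 genes against 7.11% of all genes). The lowest hearts at both times, 10.28 of Rat729 and 10.35 of Rat741, were the ones with hepatocyte transcripts, and without the arrays of other organs the differences were -0.14 and -0.11. Prdx6 at 6 h was 10.67 ± 0.05 in exposed and 10.87 ± 0.05 in air hearts, without overlap (difference -0.20, limma, adjusted p = 0.538; 1 of 9 genes against 24.6%). Without Rat728, Sod2 at 3 h passed (difference -0.30, adjusted p = 0.0415).

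In kidney, 3.12%, 6.39%, 0.35% and 0% of all genes were called at 1, 3, 6 and 24 h. Gsr in kidney differed by 0.14 at 1 h and 0.12 at 3 h, without overlap (limma, adjusted p = 0.346 and 0.418), the 1 gene of 9 at each time against 7.53% and 11.7% of all genes. Without the air kidney of Rat720, which carried hepatocyte transcripts, the differences at 1 h were 0.13 for Gsr (adjusted p = 0.506) and -0.19 for Gpx4 (0.159). Gpx1 was 13.01, 13.09, 12.89 and 13.02 in exposed and 12.82, 12.85, 12.66 and 12.88 in air kidneys at 24 h, a difference of 0.20 without overlap (limma, adjusted p = 0.865; interval 0.05 to 0.36; 1 of 9 genes against 3.45%). Gpx4 differed by -0.17 at 1 h and by 0.19 at 6 h (limma, adjusted p = 0.139 and 0.363), and at 6 h Sod2 differed by -0.12 (adjusted p = 0.688). For these 2 genes the groups, 4 exposed and 2 air rats, did not overlap at 6 h, against 24.4% of all genes. The integrity measure was also separate there, at 0.68 to 0.75 in exposed and 0.59 to 0.60 in air kidneys. Its part in these differences was not tested. The differences of Gpx3, at its highest level here, ran from -0.08 to 0.06.

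In brain, 0.149%, 0.506%, 0% and 0% of all genes were called at the 4 times. Gpx1 was 10.35, 10.19, 10.38 and 10.28 in exposed and 10.13, 10.03, 9.99 and 10.05 in air brains at 3 h. The groups did not overlap, as for 2 of 9 genes against 6.48% of all genes, but the difference of 0.25 did not pass (limma, adjusted p = 0.465; interval 0.04 to 0.46). The integrity measure did not overlap between these groups either, at 0.27 to 0.43 in exposed and 0.48 to 0.56 in air brains, and its part in the difference was not tested. In liver at 1, 6 and 24 h 0.335%, 0.223% and 0% of all genes were called, and in lung at 1, 6 and 24 h 5.8%, 0.0967% and 0.00744%. In lung at 24 h, Sod3 was 7.95 ± 0.15 in exposed and 8.22 ± 0.13 in air rats, the 1 gene of 9 without overlap against 3.23% of all genes (difference -0.27, interval -0.73 to 0.19).

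Some of the largest numerical differences sat on single arrays that carried transcripts of another organ. Gpx3 in liver at 24 h was 11.28, 5.75, 5.63 and 5.83 in exposed and 5.92, 6.06, 5.48 and 5.79 in air rats. The value of 11.28 was from Rat741, on whose array the distal nephron markers lay 5.37 and the proximal tubule markers 3.77 above the median of liver. The difference of 1.31 (limma, adjusted p = 0.762) became -0.07 without that array. The next highest Gpx3 value in liver, 7.81 of exposed Rat758 at 6 h, came with distal nephron and proximal tubule markers 0.83 and 0.92 above the median.

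Catalase in heart was 11.84 in exposed Rat729 at 3 h and 11.80 in exposed Rat741 at 24 h, while the other 28 hearts lay between 10.20 and 10.73. On these 2 arrays the hepatocyte markers lay 7.99 and 7.75 above the median of heart. Without the arrays of other organs the difference of Cat changed from 0.19 to -0.18 at 3 h and from 0.27 to -0.04 at 24 h, none past the threshold. In lung at 1 h, Cat was 10.48, 10.36, 11.21 and 10.15 in exposed and 9.85, 9.97, 10.28 and 10.50 in air rats. The highest, of Rat716, came with hepatocyte markers 7.45 above the median of lung, and the difference of 0.40 (limma, adjusted p = 0.230) was 0.18 without it.

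**Figure D4:**
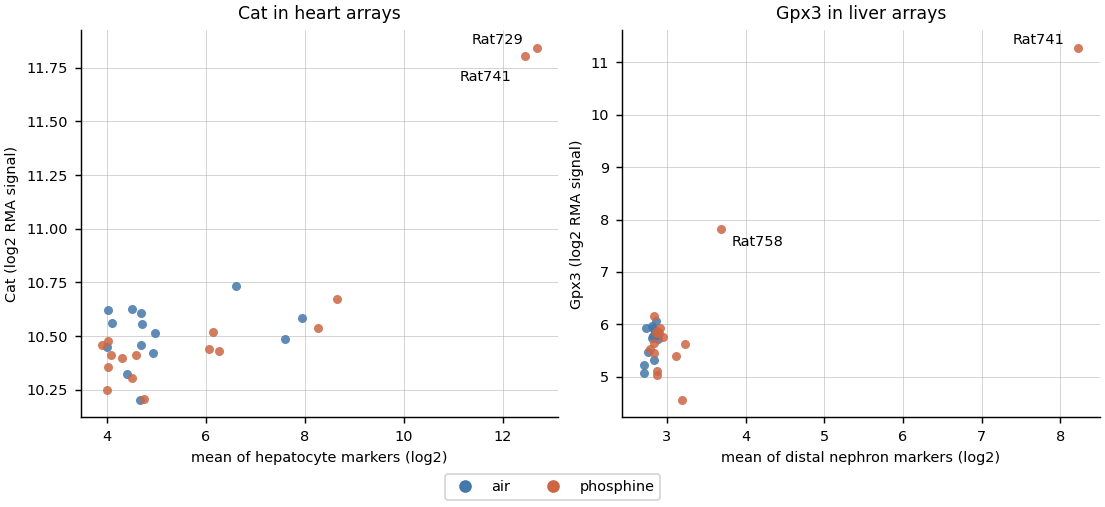
Catalase in heart arrays against the mean of hepatocyte markers (left) and Gpx3 in liver arrays against the mean of distal nephron markers (right), all log2: each point is 1 of 30 arrays, air in blue and phosphine in orange. The 2 hearts with Cat of 11.84 and 11.80 and the liver with Gpx3 of 11.28 lie at the far right of the marker axis.

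In blood, none of 27 member comparisons passed, where 0.00744%, 6.6% and 0.0521% of all genes were called at 1, 3 and 6 h. The spread was wide: 2 of 27 intervals lay within 0.5 log2 units of 0 and 11 within 1. Of all genes, 7.72%, 22.4% and 10.2% had an unadjusted p under 0.05 in limma at 1, 3 and 6 h. On the probe sets used, the only member difference with an unadjusted p under 0.05 was that of Cat at 6 h (limma, unadjusted p = 0.00834, adjusted p = 0.287). Cat was 11.86, 11.66, 11.77, 11.72 and 11.59 in exposed samples against 10.86 in the single air sample. The other 8 air samples of blood lay between 11.67 and 12.19, and against air samples of all times pooled the difference was -0.14. With a trended and robust prior the difference passed (adjusted p = 0.00998). At 6 h, 4 of 9 genes did not overlap with the single air sample, against 40.4% of all genes.

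At 3 h in blood, 8 of 9 differences were below 0, with a median of -0.41. The median of all genes was -0.07, and it was -0.15 with each array centred on its median, -0.01 with quantile normalization and -0.30 over the genes above the 40th percentile of level. Prdx6 was 6.97, 5.46, 6.80 and 6.03 in exposed and 7.33, 7.35, 7.11 and 7.75 in air samples. The groups did not overlap, as for 2 of 9 genes against 14.8% of all genes, and the difference of -1.07 missed the threshold (limma, adjusted p = 0.226; interval -2.15 to 0.004). Gsr was 5.14 ± 0.81 against 6.08 ± 0.47 (difference -0.94, adjusted p = 0.315) and Sod1 8.56 ± 0.38 against 8.97 ± 0.12 (-0.41, adjusted p = 0.274). Sod3 was the exception, at 4.11 against 3.23 (0.89, adjusted p = 0.252), near the bottom of the scale. The second Gpx4 probe set, not counted among the 9, was higher in exposed samples by 0.93 ± 0.34 (limma, unadjusted p = 0.0128). Of 6 lymphocyte markers 3 were lower at 3 h, with list means of 8.45 to 9.20 in exposed and 9.32 to 9.90 in air samples, and their part in these values was not tested. The erythroid list had means of 11.81 to 12.11 and 11.62 to 11.98, with none of 4 markers called.

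At 1 h, Gsr was 4.51, 5.17, 5.52 and 5.37 in exposed and 6.19, 4.04, 3.13 and 3.38 in air samples, so the air group alone spanned more than the difference of 0.96 (limma, adjusted p = 0.706). Gpx1 was between 13.21 and 13.27 in exposed and between 13.02 and 13.22 in air samples. At 24 h, with no air sample, the 2 exposed samples were 11.95 and 11.80 for Cat, 9.02 and 9.13 for Sod1, 9.73 and 9.31 for Sod2, 13.19 and 13.26 for Gpx1, 12.03 and 12.06 for Gpx4, 6.999 and 6.57 for Gpx3, 2.87 and 2.91 for Sod3, 6.31 and 5.08 for Gsr, and 7.19 and 7.04 for Prdx6.

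**Figure D5:**
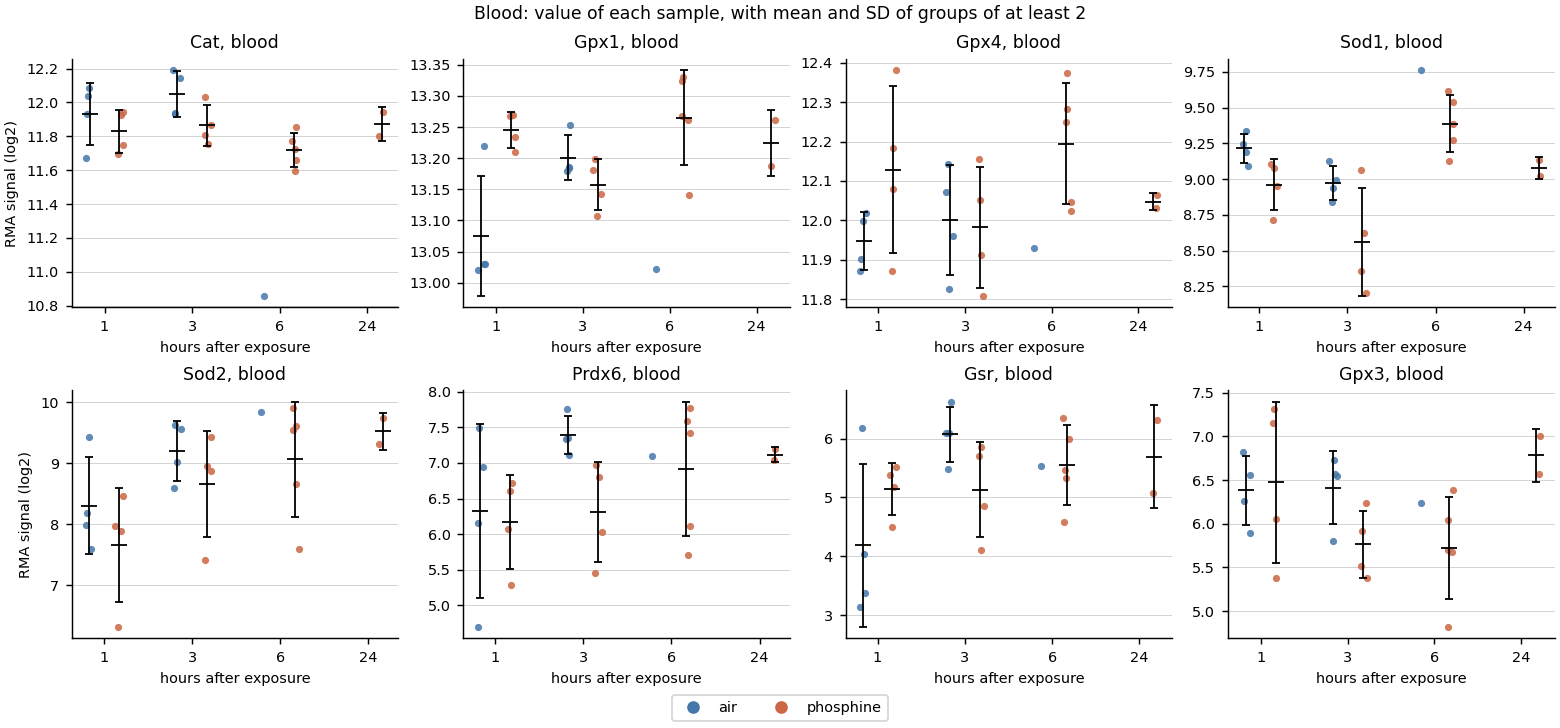
Log2 signal (y axis) of 8 of the genes in blood by hours after exposure (x axis): each point is 1 sample, air in blue and phosphine in orange, with mean and SD of groups of at least 2. The single air sample at 6 h is the lowest for Cat, 10.86, and there is no air sample at 24 h.

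Around these enzymes, 119 other genes of 10 antioxidant lists were measured. The genes named from them are the 3 most often called of each list, and others called in lung or liver at 3 h, chosen after their values were seen. At 3 h in lung, 16 of the 119 rose and 3 fell, where 5.84% and 5.76% of all genes did, with a median difference of 0.08. Without the arrays with transcripts of another organ, 13 rose and 3 fell, where 3.85% and 4.37% of all genes did. The lung list with the most calls was that of regulators of antioxidant genes, 5 of 12 higher: Maff, Mafg and Mafk, the small partners of NRF2, rose by 1.74, 0.67 and 0.52 (limma, adjusted p = 5.05e-06, 0.00105 and 0.00442), Nfe2l1 by 0.62 and Atf4 by 0.39. The list median was 0.21 against 0.01 for all genes. Each of these 5 also rose without those arrays, by 0.37 (Atf4) to 1.64 (Maff). Txnrd1, thioredoxin reductase, rose by 0.37 and Sesn1 by 0.81, while Sesn3 fell by 0.65. Ggt1, which breaks down extracellular glutathione, rose by 0.76, and Tkt of the pentose phosphate pathway by 0.39. Without the arrays with transcripts of another organ the differences were 0.31 for Txnrd1 (limma, adjusted p = 0.106) and 0.56 for Ggt1 (0.118). The call of Ggt1 was also lost without Rat731 or Rat733 (adjusted p = 0.0523 and 0.0640), and that of Tkt without any 1 of Rat728, Rat729, Rat730, Rat732 and Rat739 (0.0518 to 0.0821). Among sources of hydrogen peroxide or superoxide, Xdh and Cyba rose by 0.61 and 0.32, while the monoamine oxidases Maoa and Maob fell by 0.71 and 0.76. Pex11a, which acts in peroxisome division, rose by 0.76. Xdh, Cyba, Maoa, Maob, Pex11a, Sesn1, Sesn3 and Tkt passed without those arrays too.

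At 3 h in kidney, 12 of the 119 rose and 1 fell, where 2.86% and 3.53% of all genes did, while none of the 9 enzymes passed. Hmox1, heme oxygenase, rose by 2.05 ± 0.35 (limma, adjusted p = 5.94e-04), Srxn1, the sulfiredoxin that repairs peroxiredoxins, by 1.63 ± 0.37 (0.00676) and Slc39a14, a zinc and manganese importer, by 0.90 ± 0.17 (0.00191), and Sesn1 fell by 0.62. Of the 15 NRF2 target genes 5 rose, with a median of 0.17 against -0.01 for all genes. At 1 h, 7 of the 119 rose and 2 fell in kidney, where 2.12% and 0.997% of all genes did. Without the air kidney of Rat720, which carried hepatocyte transcripts, 5 rose and none fell, where 1.27% and 0.558% of all genes did. Maff, Mafk and Glrx rose by 1.87, 0.87 and 0.53 with that array, and the differences were 1.72, 0.86 and 0.51 without it (limma, adjusted p = 2.21e-04, 6.94e-06 and 0.0563). The call of Glrx was also lost without Rat719 or Rat721 (adjusted p = 0.0989 and 0.0544). Hmox1 also rose 3.24-fold in kidney at 1 h and 3.27-fold in heart at 3 h, and fell by 0.68 on the log2 scale in lung at 1 h (limma, adjusted p = 0.00695, 0.0100 and 0.0235). Without the air kidney of Rat720 the kidney difference at 1 h was 1.59 (limma, adjusted p = 0.0287). The arrays of exposed Rat729 (heart, 3 h) and exposed Rat716 (lung, 1 h) also carried hepatocyte transcripts. No Hmox1 value without those arrays is given here for heart or lung.

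At 3 h in liver, 4 of the 119 rose and 2 fell, where 1.99% and 1.87% of all genes did, with a median of -0.04. Ppargc1a, the coactivator of mitochondrial genes, rose by 3.71 ± 0.42 (limma, adjusted p = 1.06e-05), Foxo1 by 1.23, Sephs2, which makes the selenium donor for selenoproteins, by 1.13 and Slc39a14 by 0.48. Nfe2l2, which encodes NRF2, fell by 1.00 ± 0.16 (adjusted p = 3.57e-04) and Txnrd1 by 0.38 ± 0.08 (0.00489). The call of Sephs2 was lost without any 1 of Rat730, Rat731, Rat732, Rat733 and Rat739 (limma, adjusted p from 0.0714 to 0.0879) and with pooled air rats (0.157). Of the 15 NRF2 target genes 1 was called there, Txnrd1, and the list median was -0.15.

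In blood at 3 h, 6 of the 119 fell and none rose, where 5.8% and 0.804% of all genes did, with the largest difference for Abcd3 of the peroxisome membrane, which fell by 2.04 ± 0.41 (limma, adjusted p = 0.00903). Glrx3 fell by 1.64, Selenos, an endoplasmic reticulum selenoprotein, fell by 1.63, Cybb, a subunit of the phagocyte NADPH oxidase, fell by 1.38 and Selenot fell by 1.24. With quantile normalization 1 of the 119 fell, Abcd3 (limma, adjusted p = 0.0188), where 1.53% of all genes were lower and 0.469% higher, and the adjusted p was 0.0826 for Glrx3, 0.0713 for Selenos, 0.0860 for Cybb and 0.112 for Selenot. The call of Cybb was also lost with pooled air samples (0.0625) and without any 1 of Rat729, Rat730, Rat732, Rat733, Rat738 and Rat739 (0.0543 to 0.0815). That of Glrx3 was lost without any 1 of Rat729, Rat730, Rat732, Rat738 and Rat739 (0.0533 to 0.0957), and that of Selenot without Rat729 or Rat738 (0.0657 and 0.0507). Over all 23 comparisons, where 1.92% of tests over all genes were called, the calls higher and lower were 20 and 3 of 276 tests for regulators, 10 and 3 of 345 for NRF2 targets, 6 and 4 of 345 for the peroxiredoxin and thioredoxin system and 6 and 1 of 276 for peroxisome import and assembly. They were 5 and 2 of 299 for glutathione synthesis and use, 4 and 4 of 391 for enzymes that produce hydrogen peroxide or superoxide, 3 and 2 of 391 for selenoproteins and their synthesis, 2 and 0 of 184 for metal loading of the dismutases, 1 and 0 of 253 for NADPH supply, and 0 and 0 of 92 for the 4 other glutathione peroxidases.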

How the data were processed

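The authors deposited log2 expression values of 31139 probe sets on 174 single-colour arrays, made with RMA in Partek per the submitters' processing notes. Versions, and whether all tissues were normalized together, are not given in the sources used here. The 97 control probe sets were left out, and each gene was read from its brightest probe set annotated to 1 gene, 13438 genes in all. Limma 3.58.1 in R 4.3.3 was fitted per tissue with 1 mean per exposure and time, phosphine was set against air at each time, and p-values were adjusted by Benjamini-Hochberg over all genes of a comparison, with a threshold of 0.05. The baseline was fitted on air arrays with tissue and time. Changes of the effect between times, or between solid tissues, were tested with limma's moderated F. The fit of phosphine against air was tested on simulated data for lung, liver and blood, and the other tests were not. The number of arrays limits the precision. All intervals are 95% confidence intervals.

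The genes, marker lists and pathway lists were chosen with earlier results of these data known. Named genes are all members, the 3 most often called genes of each pathway list, and for each member the 2 genes with the highest correlation over air arrays, among genes above the 40th percentile. Rat numbers pair tissues of the same rat, not air with phosphine. The correlation within rats was -0.0022 in the baseline and 0.0268 in the differences between tissues. Alternatives changed the normalization, centring, dim-gene filter, probe set rule, prior, array weights, samples fitted, air reference and rats included. Promoters came from RefSeq on GRCr8, and no promoter of Sod3, Gsr or Prdx6 was used here. Figures were drawn in Python 3.11.15.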

Additional observations from a re-analysis of the deposited data

Results flagged for a closer look

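In 24 of 360 groups of 4 or 5 samples (6.67%), 1 sample lay far from the others of its group by Dixon's criterion, which chance alone meets in about 1 in 20 groups. For catalase these were 11.84 in heart (Rat729, phosphine 3 h) and 11.80 in heart (Rat741, phosphine 24 h), both on arrays with hepatocyte transcripts, 9.77 in lung (Rat730, phosphine 3 h), 9.81 in lung (Rat761, phosphine 6 h) and 9.05 in brain (Rat732, air 3 h). For the dismutases they were Sod1 of 12.385 in liver (Rat720, air 1 h), and Sod3 of 7.55 in liver (Rat716, phosphine 1 h), 9.14 in heart (Rat733, air 3 h) and 8.72 in heart (Rat760, phosphine 6 h).

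For Gpx1 they were 12.64 in heart (Rat712, phosphine 1 h), 13.22 in blood (Rat727, air 1 h), 13.25 in blood (Rat738, air 3 h), 12.72 in liver (Rat732, air 3 h) and 12.84 in liver (Rat749, phosphine 24 h). For Gpx3 they were 12.95 in kidney (Rat716, phosphine 1 h), 13.09 in kidney (Rat726, air 1 h), 6.63 in brain (Rat745, air 24 h), 7.81 in liver (Rat758, phosphine 6 h) and 11.28 in liver (Rat741, phosphine 24 h), the last on the array with distal nephron transcripts. Gpx4 was 11.12 in brain (Rat738, air 3 h) and 10.51 in lung (Rat741, phosphine 24 h), Gsr was 7.79 in liver (Rat748, phosphine 24 h), and Prdx6 was 11.17 in lung (Rat733, air 3 h) and 10.74 in kidney (Rat751, air 24 h).

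The effect of phosphine at 3 h differed between the solid tissues for Sod2 (limma moderated F, adjusted p = 0.00104), Gsr (0.0183) and Prdx6 (4.01e-04), and the effect on Gsr in lung differed between times (0.0412).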

How the results depend on the processing

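The 4 calls depended on several choices. In lung, the count of 3 called genes was 0 with pooled air rats, with the 9 arrays of other organs left out and with only the 2 groups fitted, 1 with quantile normalization, and 0 to 4 over fits that leave out 1 rat. In liver, the count of 1 was 5 with pooled air rats (with 7.25% of all genes called at 3 h and 7.21% at 6 h, against 3.85% and 0.223%), 0 with other-organ arrays left out, with median centring and with only the 2 groups fitted, and 0 to 1 without 1 rat. Over all tissues the count of 4 was 0 without other-organ arrays and with only the 2 groups fitted, 2 with quantile normalization and 0 to 4 without 1 rat, and in heart it was 0 to 1. With a trended and robust prior, 1 gene each passed in blood against air, in blood between times and in blood air samples between times (Cat), and in kidney between times (Gpx4), and Gpx1 passed between tissues at 3 h. With 1 rat left out, 0 to 2 genes passed between times in lung, 0 to 1 between times in blood air samples, 2 to 4 between tissues at 3 h, 57 to 83 pathway calls (70 with all rats) and 122 to 125 baseline pairs. The pathway calls were 151 with pooled air rats, 107 with array weights and 38 with only the 2 groups fitted. Signs reversed for Cat in blood at 6 h, to -0.14 with pooled air samples, and for Gpx3 in liver at 24 h, to -0.0743 without the other-organ arrays, with a range of -0.0743 to 1.81 over fits that leave out 1 rat (the lowest without Rat741). Apart from settings that leave out samples or change the reference, the cause of these changes was not tested. With rat as a replicate block, 124 baseline pairs and 3 genes at 3 h between tissues passed, as without it. No member passed between tissues at the other times, and the other tests were not refitted with this block. Of 241 values of single genes under other settings, 204 kept their direction and side of the threshold, as did 691 of 773 values with 1 rat left out. A rat outside a comparison cannot change its difference, so the count with 1 rat left out says little about direction. Most of these genes were chosen as the most often called of their lists. In blood at 6 h the single air sample limits what can be read.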
